A study of Mus musculus with 6 samples.

Results

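Genes that carry fat into muscle, coat its lipid droplets, build and break down triglyceride and make fatty acids were described in the quadriceps of mice with and without estrogen receptor alpha in muscle. The 31 genes were chosen by name, as rows of the deposited count table whose symbol was on a list of 31, and each matched 1 Ensembl ID among 37477. By role they were 8 uptake genes, 4 droplet coat genes, 5 genes of triglyceride synthesis, 4 of lipolysis, 8 of fatty acid synthesis and 2 regulators. All 31 passed the filter on low counts and were among the 13848 genes tested.

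The study compared WT (wild type) mice with MERKO mice, which carry a muscle-specific knockout of the gene for estrogen receptor alpha, Esr1, and are called KO here. Both groups were C57BL/6 mice of 20 weeks, the tissue was quadriceps, and no treatment is named for either. Each group held 3 libraries. The Cre line, the deleted exons and the number of animals behind a library were not given in the sources used here. As a result, p-values cover only the spread among these 6 libraries, which may be technical.

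Muscle takes up fatty acids from blood after lipoprotein lipase has freed them from circulating triglyceride. It burns them or stores them as triglyceride in droplets coated by perilipins. Release from the droplet starts with adipose triglyceride lipase and its coactivator, and goes on through hormone-sensitive lipase and monoglyceride lipase. Synthesis of new fatty acids is a minor activity of muscle fibres compared with liver and fat, although malonyl-CoA, the product of acetyl-CoA carboxylase, controls fatty acid entry into mitochondria there.

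Total counts per library ranged from 7388365 to 8560244. Counts of Esr1 itself were 50, 41 and 44 in WT replicates 1, 2 and 3 against 22, 16 and 16 in KO replicates 1, 2 and 3, a log2 difference of -1.45 ± 0.23 (SE) with an adjusted p of 0.145 in edgeR's quasi-likelihood test. Summed over 10 marker genes of muscle fibres, WT libraries held 203596 to 241820 CPM (read counts scaled to library size with TMM factors). KO libraries held 193368 to 211143 CPM, and the groups overlapped. Most of that sum came from 1 gene, with a mean of 148937 CPM. Taken singly, 7 of the 10 genes were estimated higher in KO and 3 lower (median 0.03 log2 units). The lower KO sum was thus not a fall shared by these genes. Nor were they all level, since their differences ran from -0.17 to 0.69 log2 units. The genotypes separated without overlap for 2 genes higher in KO and 1 lower. In edgeR's quasi-likelihood test 1 gene had an unadjusted p under 0.05 (0.00499), and 0 passed after adjustment. The part of these fibre genes in the lipid gene values was not tested. Among libraries of a group, KO replicate 1 differed most from the others, with a chi-square of the counts per gene of 8.25 and 9.57, where the other pairs had 3.46 to 5.08 and sampling noise alone gives about 1. In bulk tissue, fewer cells of a type and less RNA per cell cannot be told apart.

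The promoters of 4 genes are shown first. These genes were picked for their values in these libraries, and none of the 4 passed the test between KO and WT. Plin4 and Plin5 lie next to each other on chromosome 17, on the same strand and 1797 bases apart in GENCODE M21, and both were high in 1 KO library. Fasn had the largest estimated difference, and Me1 was the 1 member of 31 whose groups did not overlap. Groups failed to overlap for 10.4% of all genes tested, so 1 such member does not set the members apart. Each run is the 250 bases before a RefSeq start of the gene, on the minus strand in GRCm38.p6 (the assembly mm10 names), 5′ to 3′, with CCAAT or its reverse ATTGG in capitals. For Plin5 and Me1 the farther upstream of 2 annotated starts was used. The Me1 run shown holds no such box, while the run before its other start holds ATTGG at -208. For Plin5 the run before the other start holds none.
Plin4, chr17:56109783-56110032: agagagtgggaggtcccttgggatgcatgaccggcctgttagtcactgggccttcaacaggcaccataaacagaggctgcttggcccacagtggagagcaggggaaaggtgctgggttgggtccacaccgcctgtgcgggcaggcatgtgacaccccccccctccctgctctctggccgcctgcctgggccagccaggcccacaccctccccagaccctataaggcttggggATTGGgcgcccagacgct
Plin5, chr17:56117549-56117798: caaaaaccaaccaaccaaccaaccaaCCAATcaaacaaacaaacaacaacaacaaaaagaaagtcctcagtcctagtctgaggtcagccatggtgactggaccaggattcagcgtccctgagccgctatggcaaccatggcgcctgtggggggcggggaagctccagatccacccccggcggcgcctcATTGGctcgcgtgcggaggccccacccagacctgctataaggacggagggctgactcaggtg
Fasn, chr11:120824548-120824797: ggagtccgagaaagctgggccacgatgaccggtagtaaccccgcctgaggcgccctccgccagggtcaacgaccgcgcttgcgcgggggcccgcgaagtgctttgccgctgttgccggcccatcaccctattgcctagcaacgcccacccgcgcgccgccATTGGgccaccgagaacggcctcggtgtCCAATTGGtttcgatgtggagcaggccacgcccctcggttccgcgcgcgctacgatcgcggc
Me1, chr9:86695915-86696164: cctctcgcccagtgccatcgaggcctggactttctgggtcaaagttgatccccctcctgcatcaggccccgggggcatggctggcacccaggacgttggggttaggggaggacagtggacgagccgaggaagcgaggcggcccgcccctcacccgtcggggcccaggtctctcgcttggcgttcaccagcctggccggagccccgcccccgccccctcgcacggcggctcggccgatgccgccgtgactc
Counted back from the start, the Plin4 box begins at -18, the Plin5 boxes at -224 and -62, and the Fasn boxes at -90, -62 and -59. The last pair of Fasn boxes overlap, since CCAATTGG reads as a box on each strand.

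In all, 24 of the 31 members matched the RefSeq promoter table, with 34 promoters of 250 bases before and 50 after the start. Dgat1, Dgat2, Gpihbp1, Angptl4, Scd1, Scd2 and Lpl did not match. Searched on both strands, CCAAT, the letters bound by NF-Y, was present in 16 of the 34 promoters, or 47.1%, and in 37.4% of all 32851 promoters. The E-box CACGTG was present in 4, those of Lipe, Mgll, Plin2 and Slc27a1, or 11.8%, against 7.15% of all. No member promoter held the full palindromic estrogen response element (present in 0.0700% of all promoters), the sterol regulatory element TCACNCCAC (1.24%) or the direct-repeat PPAR element (0.0396%). These are matches of letters in short windows and not sites of binding.

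Per exonic length, levels of the members spanned a wide range. Fabp3, the muscle fatty acid binding protein, led with 777 ± 113 RPKM (CPM per kilobase of exon; SD, n = 3) in WT and 705 ± 101 in KO. It was followed in WT by the fatty acid translocase Cd36 at 434 ± 45.9 RPKM, the perilipin Plin4 at 213 ± 29.3 and Lpl at 142 ± 3.75. In both groups, those levels followed each other with gaps larger than their SDs, except that Plin4 and Lpl in KO, at 204 ± 72.1 and 144 ± 1.46 RPKM, did not. Next in WT came Gpam at 77.0 ± 12.4 RPKM, and then Plin5, Dgat2, Pnpla2, Scd1 and Acacb between 40.5 and 55.8 RPKM. In that order, 2 neighbouring pairs differed by more than their summed SDs, Gpam and Plin5 (77.0 ± 12.4 and 55.8 ± 6.15 RPKM) and Dgat2 and Pnpla2 (55.3 ± 3.83 and 46.1 ± 4.20 RPKM), and the other neighbours did not. At the low end stood Acaca at 1.80 ± 0.252 RPKM, Srebf2 at 0.755 ± 0.256 and the elongase Elovl6 at 0.208 ± 0.133. Reads of other genes can add to Fabp3, Abhd5 and Lipe, of whose exonic bases 19.6%, 16.0% and 15.6% are shared with other genes, since the kit does not mark strand. The order by RPKM also rests on exonic length, which joins all annotated exons of a gene and not those of the transcripts expressed. It was 823 bases for Fabp3 and 10478 for Lpl, and the SDs do not cover this choice. In CPM the order was another, with means over all 6 libraries of 1496 for Lpl, 1455 for Cd36, 1204 for Plin4 and 610 for Fabp3.

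**Figure D1:**
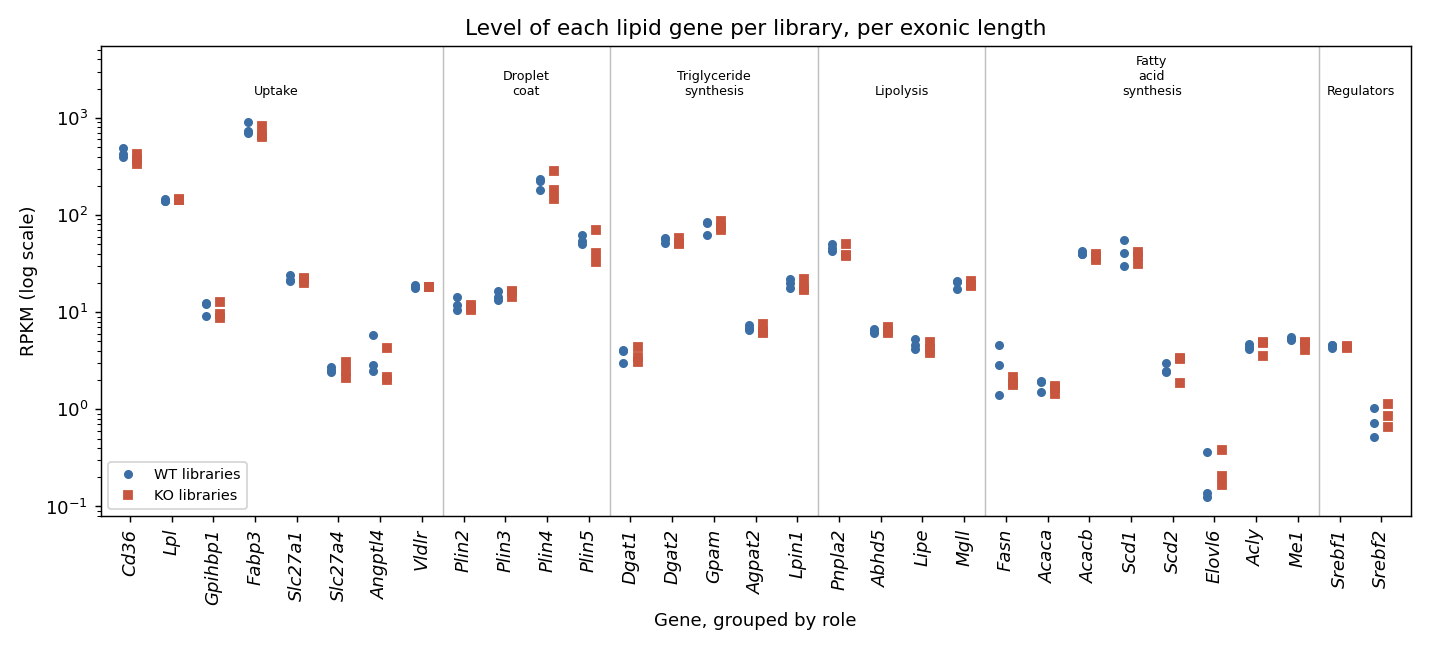
Level of each of the 31 genes in every library, as RPKM on a log axis, grouped by role, with circles for the 3 WT and squares for the 3 KO libraries. Fabp3 and Cd36 stand at the top and Elovl6 at the bottom, and circles and squares of a gene overlap except for Me1.

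Related genes stood at very unequal levels. Acacb, the acetyl-CoA carboxylase at the mitochondrial surface, stood at 22.8 ± 2.84 times the RPKM of its cytosolic relative Acaca in WT and 23.0 ± 1.39 times in KO. Dgat2, an enzyme of the last step of triglyceride synthesis, stood at 15.0 ± 1.56 times Dgat1 in WT and 14.8 ± 1.77 times in KO, and the fatty acid transporter Slc27a1 at 8.64 ± 0.055 times Slc27a4 in WT and 8.53 ± 1.11 times in KO. Scd1 stood at 11.9, 18.4 and 16.8 times Scd2 in WT replicates 1, 2 and 3 and at 11.4, 22.6 and 9.37 times in KO replicates 1, 2 and 3 (SD, n = 3 in each group above). Groups overlapped for each of these ratios. The ratios depend on exonic length, 17074 bases for Acaca against 9632 for Acacb, and their SDs do not cover that. In CPM, Acacb and Acaca were at 390 ± 17.3 and 30.7 ± 4.30 in WT and at 355 ± 25.1 and 27.5 ± 2.40 in KO. Scd1 and Scd2 are similar copies 87590 bases apart on chromosome 19, and the rule for reads that match both was not given in the sources used here.

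None of the 31 genes passed the test between KO and WT. In edgeR's quasi-likelihood test 0 members had an adjusted p under 0.05, where 0% of all 13848 genes did, and 0 had an unadjusted p under 0.05, where 4.26% of all genes did. DESeq2, limma voom and edgeR's exact test also called 0 members, where they called 0.0144%, 0.00722% and 0.0361% of all genes. So did the quasi-likelihood test without the filter on low counts, where 0.0793% of genes were called, and without WT replicate 1, where 0.0211% were. Taking KO minus WT, the log2 difference lay below 0 for 23 members and above 0 for 8, and 50.7% of all genes were below 0. The median of the 31 differences was -0.06 log2 units, against -0.00 over all genes tested, and they ran from -0.60 for Fasn to 0.28 for Elovl6. The size of that median depended on single libraries: it was -0.15 without KO replicate 2, -0.02 without KO replicate 3, -0.03 without WT replicate 1 and -0.04 without WT replicate 3. Without KO replicate 1 or WT replicate 2 it was -0.05. Me1 was the 1 member with all KO values below all WT values, where 5.45% of genes had that order, and 0 members had the opposite order, which 4.96% of genes had.

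The 95% interval of the difference lay within a 1.5-fold change either way for 24 of 31 members, and within a 2-fold change for 27. Over all genes tested the shares were 65.5% and 91.3%. All 24 and all 27 were among the 30 members of 5 CPM or more, and among all 10005 genes of that level the shares were higher, 86.6% and 98.4%. The 4 wider ones were Angptl4, Plin5, Fasn and Elovl6. In the authors' deposited table no member had an adjusted p below 1, and the smallest unadjusted p of a member was 0.021, for Fasn with a log2 fold change of -0.57.

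**Figure D2:**
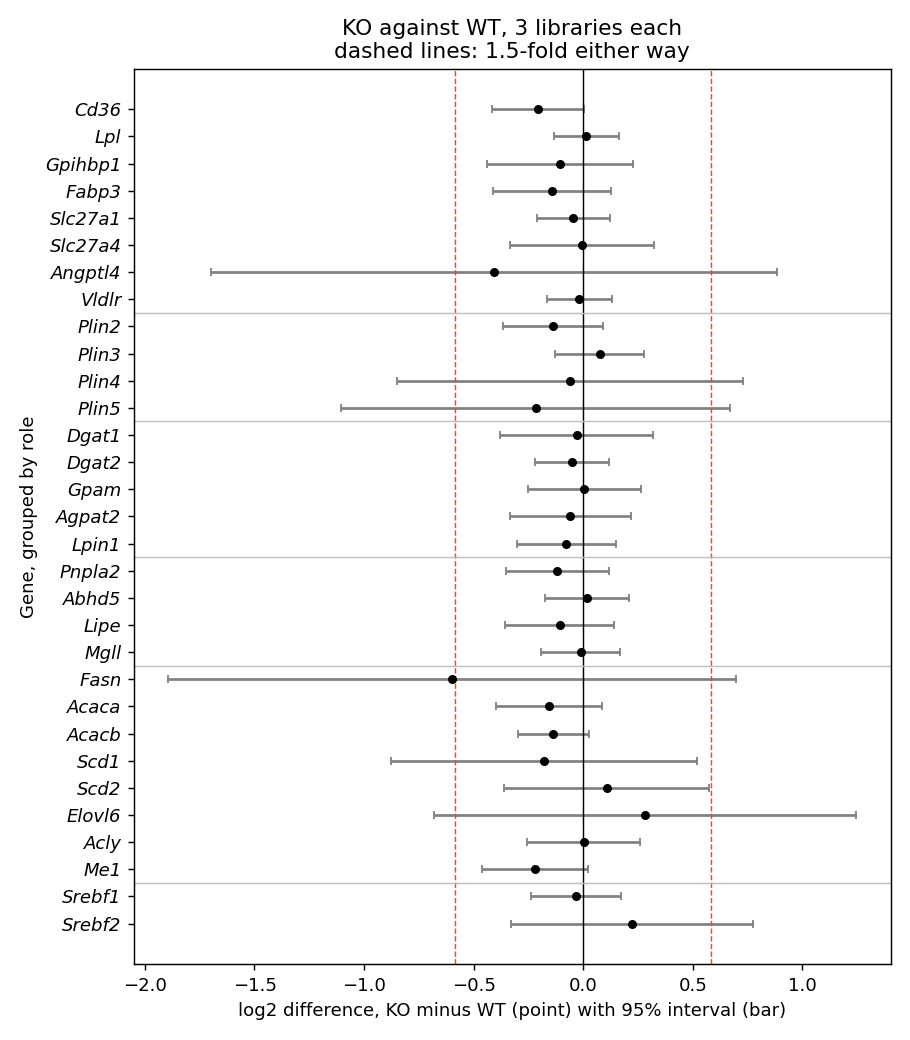
Log2 difference of KO from WT for each gene (points) with its 95% interval (bars), 3 libraries a group, grouped by role; dashed lines mark a 1.5-fold change. Every interval includes 0, and those of Fasn, Angptl4, Elovl6 and Plin5 are the widest.

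Among the uptake genes 7 of 8 had a log2 difference below 0, with a median of -0.08, and none passed. Cd36, which brings long-chain fatty acids across the cell membrane, was at 1422, 1512 and 1741 CPM in WT replicates 1, 2 and 3 and at 1197, 1524 and 1331 CPM in KO replicates 1, 2 and 3. KO replicate 2 lay among the WT values and the other KO libraries below all of them. Its log2 difference was -0.21 ± 0.10 (SE), with a 95% interval from -0.41 to 0.00. It had the smallest unadjusted p of the members, 0.0515, and an adjusted p of 0.989 in edgeR's quasi-likelihood test.

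Fabp3, which shuttles fatty acids inside the fibre, was at 569, 605 and 745 CPM in the WT libraries and 522, 675 and 543 CPM in the KO libraries. WT replicate 3 and KO replicate 2 were the high ones, as for Cd36, and the groups overlapped. The log2 difference of Fabp3 was -0.14 ± 0.12 (SE). Angptl4, a secreted inhibitor of lipoprotein lipase that fatty acids induce, showed that order most widely, with 8.71, 10.1 and 20.4 CPM in WT against 7.10, 15.0 and 7.68 CPM in KO. Its log2 difference was -0.41 ± 0.49 (SE), and without WT replicate 3 it was 0.08.

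The lipase that feeds the uptake step hardly varied. Lpl, chosen for description after its values were seen, was at 1534, 1465 and 1467 CPM in WT against 1494, 1495 and 1521 CPM in KO. For Lpl the log2 difference was 0.01 ± 0.07 (SE) with a 95% interval from -0.13 to 0.16, and the groups overlapped. Vldlr, a receptor that binds triglyceride-rich lipoproteins, varied as little between these libraries. It was at 184 ± 6.24 CPM in WT against 181 ± 0.444 CPM in KO (SD, n = 3 each). The transporters Slc27a1 and Slc27a4 differed by -0.05 and -0.00 log2 units. Gpihbp1, which anchors lipoprotein lipase on capillary endothelium, was at 28.5 ± 4.52 CPM in WT against 26.4 ± 5.26 CPM in KO (SD, n = 3 each). Beside it, 8 endothelial markers summed to between 346 and 367 CPM in WT against between 319 and 358 CPM in KO, with none at 0 counts. They had 5 members below 0 and 3 above, and their part in the Gpihbp1 values was not tested.

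Of the droplet coat genes, Plin4 and Plin5 varied widely between KO libraries and Plin2 and Plin3 did not. Plin4 was at 1279, 1368 and 1041 CPM in WT replicates 1, 2 and 3 and at 844, 1645 and 1047 CPM in KO replicates 1, 2 and 3. KO replicate 2 was the highest of all 6 libraries and KO replicate 1 the lowest, so that the KO values enclosed the WT values. The log2 difference was -0.06 ± 0.30 (SE). Plin5, the perilipin that ties droplets to mitochondria in oxidative tissue, was at 105, 113 and 131 CPM in WT against 69.1, 147 and 84.8 CPM in KO. Again KO replicate 2 was the highest library, and here the other KO libraries lay below every WT value. Plin5 had a log2 difference of -0.22 ± 0.33 (SE), with a 95% interval from -1.10 to 0.67.

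The other perilipins varied less. Plin2, the droplet coat found in most tissues, was at 37.2, 42.0 and 50.8 CPM in WT against 38.9, 42.0 and 37.4 CPM in KO. Plin3, which moves between cytosol and nascent droplets, was at 63.2, 54.3 and 50.6 CPM in WT against 54.0, 60.4 and 62.6 CPM in KO. Groups overlapped for both, and their log2 differences were -0.14 and 0.07.

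**Figure D3:**
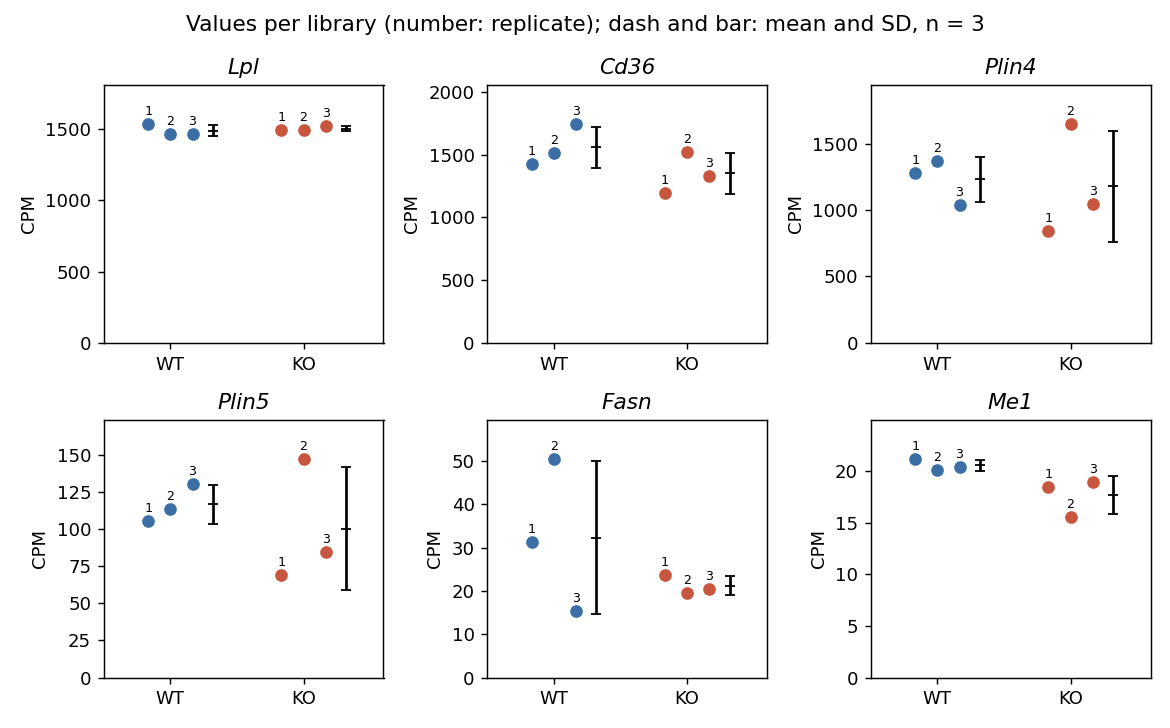
CPM of 6 genes in each library, on axes that start at 0, with the replicate number above each point and the mean and SD of 3 libraries as a dash and bar. Lpl is nearly level, KO replicate 2 is the top point for Plin4 and Plin5, WT replicate 2 for Fasn, and only for Me1 do all KO points lie below all WT points.

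Genes of triglyceride synthesis differed little, with a median log2 difference of -0.05 and 4 of 5 below 0. Gpam, the mitochondrial acyltransferase that starts glycerolipid synthesis, was at 556, 418 and 566 CPM in WT against 572, 469 and 505 CPM in KO. Dgat2 was at 179, 176 and 157 CPM in WT against 160, 177 and 156 CPM in KO. Lpin1, the phosphatidate phosphatase that makes diacylglycerol, was at 193, 210 and 169 CPM in WT against 171, 210 and 162 CPM in KO. For each of these 3 genes the groups overlapped, and the log2 differences were 0.01, -0.05 and -0.08. Agpat2, the acyltransferase that makes phosphatidate, was at 14.7 ± 0.959 and 14.1 ± 1.71 CPM, and Dgat1 at 11.4 ± 1.85 and 11.1 ± 1.96 CPM in WT against KO (SD, n = 3 each).

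Lipolysis genes had 3 of 4 members below 0 and a median log2 difference of -0.06. Pnpla2, which encodes adipose triglyceride lipase, was at 138, 128 and 153 CPM in WT against 115, 153 and 117 CPM in KO. KO replicate 2 lay just under the highest WT value, and the other KO libraries lay below every WT value, as for Plin5 and Cd36. Pnpla2 differed by -0.12 ± 0.11 log2 units (SE). Lipe, the hormone-sensitive lipase, was at 24.8, 26.8 and 30.9 CPM in WT against 24.7, 29.4 and 22.5 CPM in KO, a log2 difference of -0.11 ± 0.12 (SE) with overlapping groups. Abhd5, the coactivator of Pnpla2, and Mgll, which cleaves monoglycerides, differed by 0.02 and -0.01 log2 units, with 95% intervals from -0.17 to 0.21 and from -0.19 to 0.17.

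Fatty acid synthesis genes gave the widest spread of differences, from -0.60 to 0.28 log2 units, with a median of -0.15 and 5 of 8 below 0. Fasn, the fatty acid synthase, was at 31.2, 50.5 and 15.3 CPM in WT replicates 1, 2 and 3 and at 23.7, 19.6 and 20.6 CPM in KO. The KO libraries lay close together inside the WT range. The log2 difference of Fasn was -0.60 ± 0.48 (SE), and it was -0.13 without WT replicate 2 and -0.94 without WT replicate 3, so that single WT libraries set its size.

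Me1, the malic enzyme that supplies NADPH for fatty acid synthesis, was at 21.2, 20.1 and 20.4 CPM in WT against 18.5, 15.6 and 18.9 CPM in KO. Each KO library lay below each WT library, by a small margin, as was so in one direction or the other for 10.4% of genes. The log2 difference was -0.22 ± 0.11 (SE), with a 95% interval from -0.46 to 0.02. Me1 had a p of 0.0719 before and 0.989 after adjustment by edgeR's quasi-likelihood test. Acacb, whose product malonyl-CoA restrains fatty acid entry into mitochondria, was at 410, 383 and 378 CPM in WT against 354, 381 and 331 CPM in KO. KO replicate 2 lay just inside the WT range and the other KO libraries below it. Its log2 difference was -0.14 ± 0.08 (SE), with an unadjusted p of 0.0911.

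The desaturases Scd1 and Scd2, which place a double bond in saturated fatty acids, varied between libraries of a group. Scd1 was at 146, 270 and 200 CPM in WT against 186, 206 and 154 CPM in KO. Scd2 was at 13.7, 16.4 and 13.3 CPM in WT against 18.2, 10.1 and 18.3 CPM in KO, so that KO replicate 2 was the lowest library. Their log2 differences were -0.18 ± 0.26 and 0.11 ± 0.21 (SE), and the groups overlapped for both.

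Elovl6, which lengthens fatty acids, had only 6, 17 and 7 counts in WT and 9, 11 and 20 in KO, where counting error alone is near 29.3% of the level. In CPM this was 0.804, 2.32 and 0.887 in WT and 1.07, 1.33 and 2.48 in KO, and a difference of up to 1.25 log2 units lay inside its interval. Acaca and Acly, the ATP citrate lyase that makes cytosolic acetyl-CoA, differed by -0.16 ± 0.11 and 0.00 ± 0.12 log2 units (SE).

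Of the regulators, Srebf1, the sterol-regulated factor that drives fatty acid synthesis genes, was at 25.7, 25.8 and 24.0 CPM in WT against 25.0, 25.0 and 23.9 CPM in KO. Its log2 difference was -0.03 ± 0.10 (SE), with overlapping groups. Srebf2, which drives cholesterol synthesis genes, was at 5.22, 3.69 and 7.35 CPM in WT against 8.17, 4.71 and 6.19 CPM in KO. The replicates of each group were far apart, and the log2 difference was 0.22 ± 0.26 (SE).

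Within a genotype the members differed widely in their spread between libraries. The pooled SD over mean within groups was 2.00% for Lpl, 2.41% for Vldlr and 3.47% for Srebf1, each lower than in at least 95% of the 10005 genes of 5 CPM or more. It was 46.6% for Angptl4, 39.1% for Fasn, 30.8% for Srebf2, 30.1% for Plin5 and 26.8% for Plin4, each among the most variable 5% of those genes. Counting error is about 1.03% for Plin4, 3.42% for Plin5 and 6.93% for Fasn at their mean counts, so that their libraries differed by more than counting error. For Srebf2 it is 14.6%, for Lpl 0.919%, for Vldlr 2.63% and for Srebf1 7.13%. The spreads of Vldlr and Srebf1 thus lay below counting error, and with 3 libraries a group they do not show that these genes are steady. Over the 30 members of 5 CPM or more the median SD over mean was 12.6%, and it was 9.79% over all genes of that level.

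Single libraries were high for many members at once, a pattern chosen for description after the values were seen. KO replicate 2 was the highest of the 3 KO libraries for 18 of 31 members, or 58.1%, where it was the highest for 34.2% of all genes and 32.9% of the other lipid genes tested. At 5 CPM or more, it was the highest for 60% of 30 members and for 36.6% of all genes. By role this held for 6 of 8 uptake genes, 3 of 4 droplet coat genes, 3 of 5 of triglyceride synthesis and 3 of 4 of lipolysis, but for 2 of 8 of fatty acid synthesis. KO replicate 2 stood at 2.03 times the mean of the other KO libraries for Angptl4, 1.91 times for Plin5 and 1.74 times for Plin4. The ratio was 1.38 for Gpihbp1, 1.33 for Slc27a4, 1.32 for Dgat1, 1.31 for Pnpla2 and 1.27 for Fabp3. WT replicate 3 was the highest WT library for 14 of 31 members, or 45.2%. It was the highest for 34.6% of all genes and for 45.6% of the other lipid genes tested, near the members' share. By role WT replicate 3 was the highest for 5 of 8 uptake genes, 4 of 4 of lipolysis and 0 of 8 of fatty acid synthesis. The spread of Fasn lay in WT, with an SD over mean of 54.4% against 10.1% in KO. For Scd2, Srebf2 and Acly KO replicate 2 stood at 0.555, 0.656 and 0.735 times that mean.

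Other cells' genes also varied between these libraries. Summed over the 5 blood markers matched, 4 globin genes and Alas2, the level was 1009, 1730 and 1512 CPM in WT replicates 1, 2 and 3 and 814, 1706 and 694 CPM in KO replicates 1, 2 and 3, so that KO replicate 2 was again the highest KO library, for 5 of 5 genes. None of the 5 was at 0. All 5 had a log2 difference below 0, with a median of -0.39, and none passed. The 8 adipocyte markers summed to between 263 and 346 CPM in WT against between 284 and 322 CPM in KO, highest in WT replicate 3 and KO replicate 2, and most of that sum was Fabp4, which endothelium also makes. Of the 7 adipocyte markers tested, 5 were above 0 and 2 below in log2 difference, with a median of 0.29, and none passed. Adipoq, a gene of fat cells, was at 12.2 ± 3.73 CPM in WT against 14.9 ± 1.99 CPM in KO (SD, n = 3 each), and no adipocyte marker was at 0 in all libraries. Not every list was highest in KO replicate 2. In KO replicates 1, 2 and 3, fibroblast markers summed to 673, 637 and 702 CPM. Endothelial markers summed to 358, 319 and 337 CPM there, so that both sums were lowest in replicate 2. Macrophage markers summed to 92.3, 102 and 95.2 CPM. KO replicate 2 was the highest KO library for 0 of 6 fibroblast, 2 of 8 endothelial and 3 of 8 macrophage markers. The part of blood, fat or other cells in the lipid gene values was not tested.

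**Figure D4:**
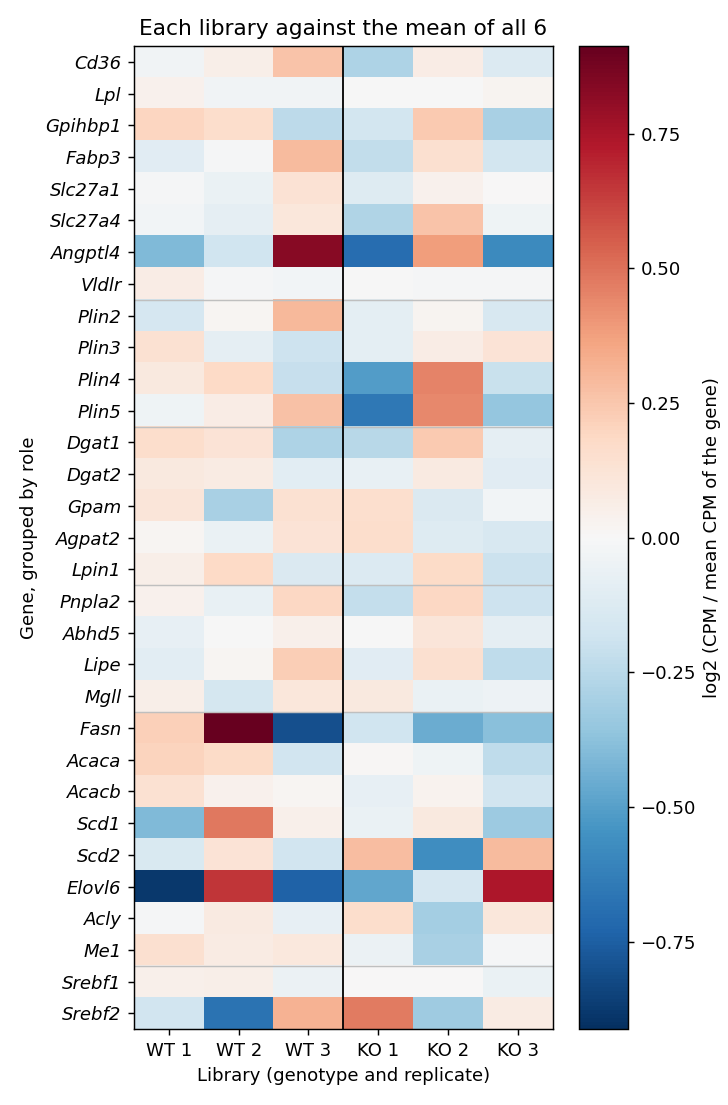
Log2 ratio of each library's CPM to the mean of all 6 libraries, for the 31 genes grouped by role, with WT replicates on the left and KO replicates on the right. Plin4, Plin5 and Angptl4 are high in KO replicate 2 and low in KO replicates 1 and 3, but Angptl4 is highest in WT replicate 3. Fasn runs from its highest in WT replicate 2 to its lowest in WT replicate 3, and Lpl and Vldlr are near 0 throughout.

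Leaving out KO replicate 2 gave larger differences for several storage and uptake genes and no call. The library was singled out for being the highest KO library for many members. Lower KO means for those members without it follow from that choice, so the p-values and counts below are no added support. Without that library Plin5 had a log2 difference of -0.60, and in edgeR's quasi-likelihood test its p was 5.7e-05, or 0.109 after adjustment. That was the lowest adjusted p of any member under any setting tried. Without KO replicate 1, by contrast, Plin5 differed by -0.01. Cd36 (-0.30), Pnpla2 (-0.26), Plin4 (-0.38), Fabp3 (-0.26), Acacb (-0.19) and Lpin1 (-0.20) also had an unadjusted p under 0.05 without KO replicate 2, as did Scd2 in the other direction (0.34). That made 8 of 31 members, where 6.35% of all genes reached that level in that fit, and none passed after adjustment. Without WT replicate 1 or WT replicate 3 it was 2 members (3.42% and 4.88% of genes), and it was 0 when WT replicate 2 (4.08%), KO replicate 1 (5.59%) or KO replicate 3 (3.55%) was left out. Other libraries made several of these differences smaller: without WT replicate 3, Cd36 differed by -0.12 and Fabp3 by -0.02, without KO replicate 1 Pnpla2 by -0.05, and without WT replicate 2 Lpin1 by -0.00. Without KO replicate 2, 8 members had all KO values below all WT values, where 11.8% of genes did, and 2 had them above, where 10.5% did. The labels give no reason to set this library aside, KO replicate 1 and not KO replicate 2 stood farthest from its group over all genes, and the difference between it and the other KO libraries has no replicate.

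The rest of the pathway was read from 86 other lipid genes in 7 groups, of which 79 were tested. In edgeR's quasi-likelihood test 0 of them were called, 38 were higher and 41 lower in KO, and the median log2 difference was -0.00. At an unadjusted p under 0.05 there were 2, Acsl1 and Nr1h3, and DESeq2, limma voom and the exact test called 0. Acsl1, which activates fatty acids in muscle, was at 1046 ± 108 CPM in WT against 909 ± 59.9 CPM in KO, with overlapping groups and an unadjusted p of 0.029. Nr1h3, the liver X receptor alpha, was at 9.43 ± 0.434 CPM in WT against 11.9 ± 0.882 CPM in KO, all KO values above WT, with an unadjusted p of 0.0281 (SD, n = 3 each). In edgeR's quasi-likelihood test both had an adjusted p of 0.989. For 4 of the 79, Nr1h3, Plin1, Hilpda and Usf1, each KO library was above each WT library, an order that 4.96% of all genes had, and 0 had the opposite order.

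The groups of these other genes stood as follows. Other uptake genes had 8 higher and 6 lower, and Fabp5 differed by 0.38. Other droplet genes had 4 higher and 3 lower. Plin1, the perilipin of fat cells, was at 6.83 ± 0.819 and 8.77 ± 1.22 CPM in WT against KO, and Bscl2, the droplet-forming protein seipin, differed by 0.32. The acyltransferases and lipins had 3 higher and 5 lower, with Agpat4 at -0.47 and Agpat5 at 0.15. Other lipolysis genes had 5 higher and 2 lower, with Pnpla3 at -0.37 and Abhd12 at 0.09. The list of other genes of fatty acid synthesis also held Mlycd, which breaks down malonyl-CoA. That list had 5 higher and 10 lower, with the desaturase Fads2 at -0.57 and the citrate carrier Slc25a1 at 0.39. The regulators had 6 higher and 8 lower, with Usf1 at 0.22. Cholesterol synthesis, the main target of Srebf2, had 7 higher and 7 lower, with Fdps at 0.25. All these are log2 differences, and none passed.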

How the data were processed

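RNA was measured in 3 WT and 3 KO quadriceps libraries, made with the Illumina TruSeq RNA kit per the labels' protocols. The submitters' processing notes name TopHat 1.3.3, edgeR and mm10, with no role or order. The authors' deposited table holds raw counts per Ensembl gene, and also a log2 fold change and a p-value with its adjusted p-value that the authors computed. Of its 37506 rows 29 repeated an ID with equal counts and were merged. The counter, annotation release and multi-mapping rule were not given in the sources used here.

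Genes were filtered with filterByExpr, scaled with TMM and tested two-sided on genotype alone with the robust quasi-likelihood F-test of edgeR 4.0.16 (R 4.3.3), with Benjamini-Hochberg adjustment over 13848 genes and a threshold of 0.05. SE is the size of the difference divided by the square root of F. CPM uses the TMM-scaled library sizes, and RPKM divides it by exonic length, the joined length of all exons annotated for a gene in GENCODE M21. The fit was tested on simulated data. Replicates differed by more than sampling noise (chi-square, genes with 10 or more counts in a pair) and each library was counted once. Promoters came from RefSeq tables of GRCm38.p6.

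Members and lists were chosen with earlier results of these data known. Values in every library were given for members without overlap between groups, the 2 of smallest p and the 1 of highest RPKM in each role, and those with an SD over mean of at least 0.25. For other lipid genes, the 2 of smallest p in each group were named, except 1 gene that is not reported here. Alternatives were other scalings, filters, DESeq2 1.42.0, limma 3.58.1 (voom), the exact test, a replicate block and leaving out each library. Of 86 other lipid genes Hmgcs1 was not matched and 6 failed the filter; Hbb-bs and Hbb-bt were not matched.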

Additional observations from a re-analysis of the deposited data

How the results depend on the processing

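Over 15 alternatives no member and no other lipid gene was called. Of the 31 members 17 kept the direction of their log2 difference in all of them, and 14 turned in at least 1, for 36 of 465 values. All genes called were 0 in the quasi-likelihood fit, 19 without a filter on low counts, 2 in DESeq2, 1 in limma voom and 5 in edgeR's exact test, and 0 to 3 without 1 library (3 without WT replicate 1); the cause was not tested. Esr1 passed without the filter (-1.44, adjusted p = 0.000142) and in the exact test (-1.45, 3.6e-05), and ran from -1.60 to -1.36 without 1 library, where it did not pass.

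Leaving out 1 library gave these ranges of log2 difference for members that turned: Slc27a1 -0.086 to 0.014, Slc27a4 -0.15 to 0.12, Angptl4 -0.83 to 0.076, Vldlr -0.036 to 0.010, Plin4 -0.38 to 0.13, Dgat1 -0.17 to 0.076, Gpam -0.12 to 0.082, Abhd5 -0.035 to 0.062, Mgll -0.088 to 0.041, Scd1 -0.37 to 0.069, Scd2 -0.023 to 0.34, Elovl6 -0.15 to 0.92, Acly -0.088 to 0.14 and Srebf2 -0.0025 to 0.51. For the others the ranges were Cd36 -0.30 to -0.12, Lpl 0.0019 to 0.036, Gpihbp1 -0.28 to -0.0022, Fabp3 -0.26 to -0.017, Plin2 -0.24 to -0.0056, Plin3 0.0051 to 0.17, Plin5 -0.60 to -0.0075, Dgat2 -0.11 to -0.016, Agpat2 -0.16 to -0.0015, Lpin1 -0.20 to -0.0022, Pnpla2 -0.26 to -0.047, Lipe -0.22 to -0.014, Fasn -0.94 to -0.13, Acaca -0.27 to -0.088, Acacb -0.19 to -0.087, Me1 -0.27 to -0.13 and Srebf1 -0.066 to -0.0092. Slc27a4 also turned with upper-quartile scaling (0.0015), with no scaling (0.010) and without the filter (0.0049), Mgll with no scaling (0.0031), and Acly in limma voom (-0.012). With the replicate number as a block 0 genes were called, 24 members were lower and 7 higher, and Acly turned (-0.0048). Same-numbered libraries deviated from their group means with correlations of -0.015, 0.16 and 0.038 across genes, so the numbers were not taken as pairs; WT replicates 1 and 3 correlated best with a KO library of another number (0.017 and 0.14).

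Depth limits Elovl6 and Srebf2, at 6 to 20 and 27 to 69 counts a library.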
